A study of Mus musculus with 6 samples.

Results

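Far molar Smad4 peaks are the Smad4 sites of the mouse molar tooth germ whose summit lay outside every protein-coding gene and more than 50 kb from the nearest gene start or end. They were chosen by that distance alone, on chromosomes 1 to 19, from the list of 34561 molar Smad4 peaks. The autosomes held 30804 of these peaks, and 7697 of them met the rule, which is 25% (exact 95% interval 24.5 to 25.5%). Chromatin immunoprecipitation followed by sequencing (ChIP-seq) had been carried out on wild-type CD1 mice at stage E13.5 (mid-gestation, the bud stage of the molar), with no allele or treatment in any group. The groups were molar Smad4, molar pSmad1/5, limb Smad4 and limb pSmad1/5, with 1 library each, beside 1 input sample per tissue whose signal was not used here. Molar tooth germ and limb bud are mixed tissues, so a peak cannot be assigned to a cell type.

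Smad4 is the common partner with which receptor-activated Smads enter the nucleus. Smad1 and Smad5 carry signals of bone morphogenetic proteins (BMPs), and Smad2 and Smad3 carry those of TGF-beta and activins. In the tooth, BMP signals pass between dental epithelium and mesenchyme and maintain the genes that drive the germ from bud to cap. Genes that direct development often lie beside long intervals without protein-coding genes, called gene deserts, and these intervals can hold enhancers that act over long distances. Smads bind the short element GTCT, or AGAC on the other strand, and also GC-rich sites.

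Sequence could be read for the far peaks that lie in an annotated promoter, since the RefSeq table used here (GRCm38.p6, the build of mm10) covers 250 bases before to 50 bases after each gene start. Of the 7697 far peaks, 25 touched such a window, and all of these windows, of 24 genes, belonged to long noncoding RNAs (lncRNAs), which the distance rule did not use. The whole peak lay inside the window for 14 of them, and 6 of these 14 held GTCT or AGAC. No share was computed over other stretches of peak length, so the 6 of 14 cannot be read as more than the usual share. Printed here are 4 of these 6, and the peak in the Id4 desert, which held neither element. The sequences are those of the plus strand, 5′ to 3′, over the whole peak, with every GTCT or AGAC in capitals. They were chosen after their values were seen.
Gm31210 peak, chr3:85341899-85341948: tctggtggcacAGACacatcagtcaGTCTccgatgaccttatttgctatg
Gm40006 peak, chr2:172116449-172116524: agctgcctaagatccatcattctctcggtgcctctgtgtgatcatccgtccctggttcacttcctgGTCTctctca
Gm31870 peak, chr1:193655364-193655439: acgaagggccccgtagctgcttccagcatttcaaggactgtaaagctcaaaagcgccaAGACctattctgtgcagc
Gm52046 peak, chr13:83721625-83721690: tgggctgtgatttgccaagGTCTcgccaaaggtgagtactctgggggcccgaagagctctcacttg
Gm52065 peak, chr13:48131865-48131914: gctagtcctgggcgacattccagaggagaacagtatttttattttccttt

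The Gm31210 peak had a score of 4.42, its summit lay 177 bases before the lncRNA start, and the nearest coding gene, Gatb, was 232 kb away. The Gm40006 summit lay 11 bases before the start and 73.0 kb from Cbln4, a secreted synapse organiser, with a score of 4.46. The Gm52046 peak scored 3.08, with its summit 19 bases before the start and 54.6 kb from Mef2c, a transcription factor of muscle, neural crest and neurons. These peaks are thus far from coding genes and close to the start of another transcript. The Gm31870 peak, with a score of 3.57, lay 103 bases before its start and 285 kb from Camk1g, a calmodulin-dependent kinase. The Gm52065 peak, with a score of 3.86, lay 104 bases before its start and 129 kb from Id4, an inhibitor of basic helix-loop-helix factors. Over whole windows of 300 bases the 4-letter element is too common to set these sites apart: GTCT or AGAC was in 18 of the 20 windows that held a far summit (90%, exact 95% interval 68.3 to 98.8%), in 91.2% of 3274 far promoter windows and in 88.0% of all 31363 autosomal windows. The 5-letter form CAGAC or GTCTG was in 14 of the 20 (70%, 45.7 to 88.1%), against 52.1% and 49.6%. CAGAC contains AGAC, so both counts share matches, and the intervals cover counting error only. The palindrome GTCTAGAC was in 0 of 20 windows (upper limit of the exact interval 16.8%) and the GC-rich GGCGCC in 1 of 20, against 0.244% and 1.74% of the far promoter windows.

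Whole-list facts that touch these counts are the following. The lists hold no read counts, so depth is unknown, and with 1 library per group no difference has a replicate check. The enrichment score is the authors' value per peak. The lowest listed molar Smad4 score was 4 on chromosomes 2, 5, 8, 9, 11 and 19 and 3 on the other 13, so the first 6 chromosomes carry far fewer molar Smad4 peaks, near genes or far from them. They gave 476 of the far peaks, from 27 to 109 each, and the other 13 gave 7221, from 242 to 840 each. The lowest molar pSmad1/5 score was 2 on chromosomes 1, 3, 6, 12, 13, 14 and 16, where that list had 11.9 to 15.9 far peaks per Mb, and 3 on the other 12, where it had 2.38 to 3.79. Both limb lists start at 3 on all 19. As deposited, counts of molar pSmad1/5 peaks therefore cannot be set beside those of molar Smad4, or compared between chromosomes of the first and the second kind. A limit of 3 was applied for this purpose and was chosen after the lists were seen. It is common to both molar lists only on the 13 chromosomes where molar Smad4 starts at 3. Whether equal scores of different antibodies mean equal stringency was not tested.

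Far molar Smad4 peaks were thinner on the ground than peaks nearer to genes. Far territory, the autosomal sequence outside coding genes and more than 50 kb from them, covered 836 Mb of the 2398 Mb between the outermost genes (34.8%), and held 9.21 molar Smad4 peaks per Mb against 14.8 per Mb in the rest. The ratio of the densities was 0.623. It was below 1 on 19 of 19 autosomes and ran from 0.494 to 0.787 on the 13 chromosomes with the lower score limit and from 0.382 to 0.655 on the other 6. The same ratio was 0.478 for molar pSmad1/5, 0.222 for limb Smad4 and 0.274 for limb pSmad1/5, so all 4 libraries were depleted far from genes and molar Smad4 the least. With a score of at least 3 the ratio for molar pSmad1/5 was 0.322. On the 13 chromosomes where molar Smad4 starts at 3 it was then 0.341, against 0.592 for molar Smad4.

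The far share of each list gave the same order. It was 25% for molar Smad4, 20.4% for molar pSmad1/5 (exact 95% interval 19.96 to 20.8%), 10.6% for limb Smad4 (10.3 to 10.99%) and 12.8% for limb pSmad1/5 (12.4 to 13.3%). The molar Smad4 share exceeded that of either limb list on 19 of 19 autosomes, and that of molar pSmad1/5 on 18 of 19. With a score of at least 3 the molar pSmad1/5 share was 14.7%. On the 13 chromosomes where molar Smad4 starts at 3 it was then 16.7%, against 25.8% for molar Smad4. With a score of at least 4 in every list the shares were 19.9%, 13.4%, 7.09% and 8.52%, in the same order of lists.

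**Figure D1:**
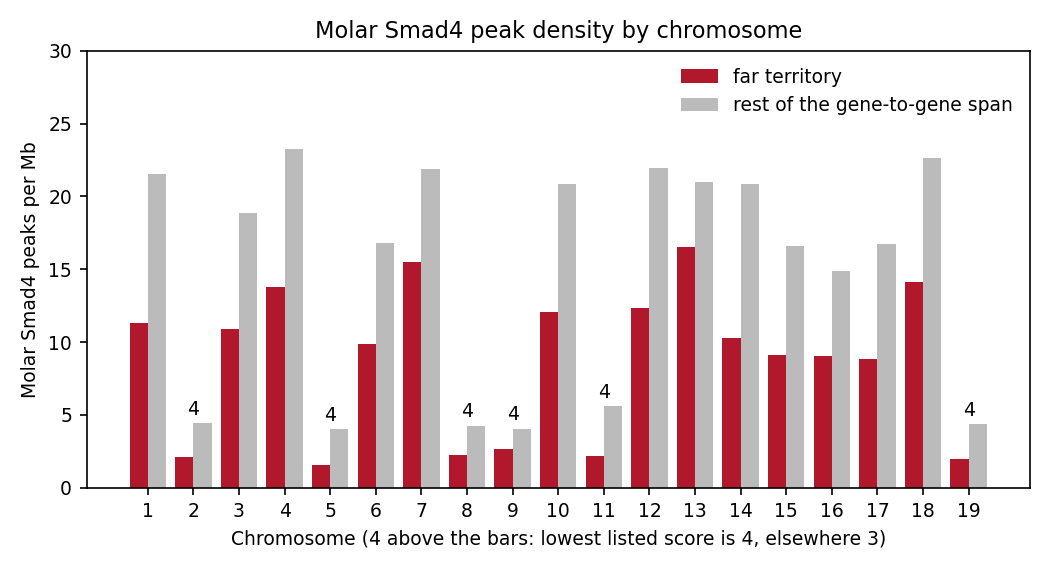
Molar Smad4 peaks per Mb (vertical axis) on each autosome, in far territory (red) and in the rest of the span between the outermost protein-coding genes (grey), 1 library. Far territory is the lower bar on 19 of 19 chromosomes, and the 6 chromosomes marked 4, whose lowest listed score is 4, stand below the others in both bars.

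Within far territory, molar Smad4 peaks thinned out further with distance, more gradually than limb peaks. The median distance of a far peak from the nearest coding gene was 161 kb, with quartiles at 88.6 and 303 kb. The density was 12.7 peaks per Mb at 50 to 100 kb (exact Poisson 95% interval 12.2 to 13.3), 11.2 at 100 to 250 kb, 8.25 at 250 to 500 kb, 4.69 at 500 to 1000 kb and 3.502 beyond 1000 kb (3.06 to 3.99). The first band was 3.63 times as dense as the last for molar Smad4, 1.77 times for molar pSmad1/5 (2.56 times with a score of at least 3), 12.2 times for limb Smad4 and 10.1 times for limb pSmad1/5. Beyond 1000 kb molar pSmad1/5 had 5.89 peaks per Mb as deposited and 1.71 with a score of at least 3, so its place above molar Smad4 there rests on scores from 2 to 3, which molar Smad4 does not list. On the 13 chromosomes with the lower score limit the ratio for molar Smad4 was 3.67, and on the other 6 it was 4.40. Molar pSmad1/5 with a score of at least 3 gave 2.52 on those 13.

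**Figure D2:**
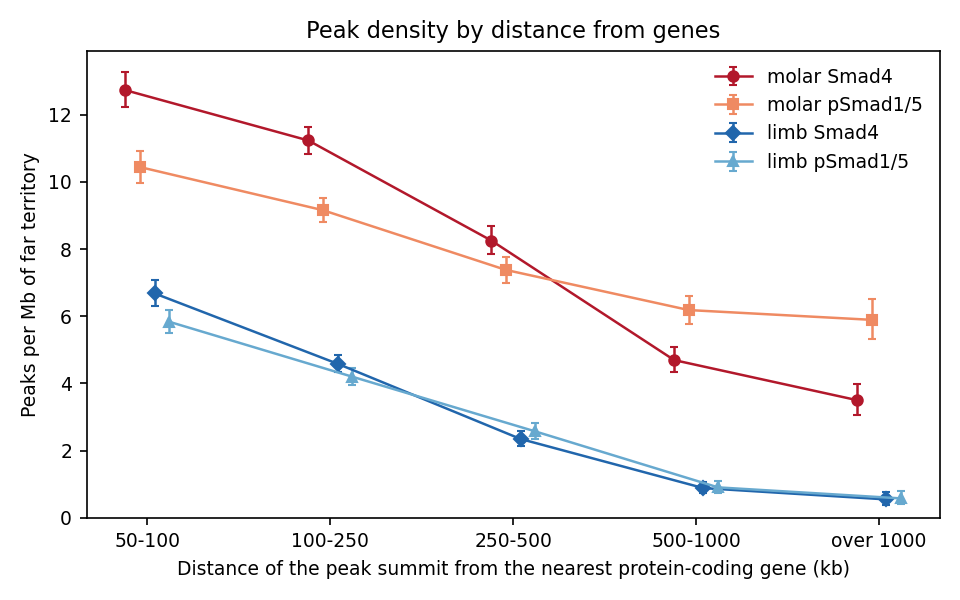
Peaks per Mb of far territory (vertical axis, starting at 0) by distance of the summit from the nearest protein-coding gene in kb (horizontal axis), for the 4 peak lists. Points are densities over all autosomes and bars are exact Poisson 95% intervals, which cover counting error only. Molar Smad4 falls from 12.7 to 3.502 per Mb and limb Smad4 from 6.68 to 0.548. Molar pSmad1/5 includes scores from 2 to 3, which the other lists do not hold.

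The 5 peaks farthest from any coding gene lay in 2 deserts, Celf4-Pik3c3 on chromosome 18 and Pcdh20-Pcdh9 on chromosome 14. The largest distance was 2245 kb from Celf4, a neuronal RNA-binding protein, with a score of 4.10, and another peak lay 2143 kb from that gene. The other 3 lay 2190 and 2101 kb from Pcdh20 and 2126 kb from Pcdh9, protocadherins that flank the desert on chromosome 14. The next farthest peak lay in the desert on chromosome 18 and was nearest to its other flank, Pik3c3, at 2073 kb. At the other end, the far peak closest to the limit lay 50001 bp from Gdf6, and the nearest peak left out lay 49997 bp from Kcnk10. Beyond the outermost coding genes lay 3 of the far peaks, near Hnf4g, Gdi2 and Selenop at the proximal ends of chromosomes 3, 13 and 15, and these enter no density.

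Far peaks scored slightly lower than the rest of the list. The median score was 3.39 for far peaks and 3.47 for the other autosomal peaks. On the 13 chromosomes with the lower score limit alone the medians were 3.35 and 3.40, a difference of -0.0477 in place of -0.0829. The median was lower for far peaks on 17 of 19 autosomes. On these 13 chromosomes the far share was 27.3% of peaks with a score of 3 to 3.5, 24.8% at 3.5 to 4, 21.9% at 4 to 5, 21.7% at 5 to 6 and 14.8% at 6 or more (exact 95% interval 4.19 to 33.7%, 27 peaks). The highest far score was 6.42, against 13.97 for the whole autosomal list. The median peak width was 53 bp for far and 54 bp for other peaks.

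The 10 highest-scoring far peaks were scattered over 8 chromosomes rather than gathered in one desert. The strongest, on chromosome 18, lay 108 kb from Zfp516, a zinc-finger factor, in the desert that ends at Tshz1. A pair with scores of 6.31 and 6.18 lay 60.2 and 74.97 kb from Cwc22, a splicing factor, on chromosome 2. The others were nearest to Ralyl (6.16), Cul3 (6.09), Pik3r1 (6.02), Gm9195 (5.97), Gata5 (5.95), Adpgk (5.87) and Tox3 (5.78). Pik3r1 encodes a regulatory subunit of PI3-kinase and Cul3 a ubiquitin ligase scaffold. Of these 10 peaks, the Tox3 peak alone overlapped a peak of another list, limb pSmad1/5.

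Few far molar Smad4 peaks coincided with a peak of another library. By at least 1 bp, 24 overlapped molar pSmad1/5, which is 0.312% (exact 95% interval 0.200 to 0.464%) against 0.723% (0.618 to 0.841%) of the other autosomal molar Smad4 peaks and 0.62% of all of them. With limb Smad4 the numbers were 12, or 0.156% (0.0806 to 0.272%), against 0.528% (0.439 to 0.630%) and 0.435% of all. With limb pSmad1/5 they were 13, or 0.169% (0.0900 to 0.289%), against 0.294% (0.229 to 0.373%) and 0.263% of all. The intervals of far and other peaks were apart for molar pSmad1/5 and limb Smad4 and met for limb pSmad1/5. With molar pSmad1/5 peaks of a score of at least 3, the far share was 0.0780% (0.0286 to 0.170%) and the share of the others 0.299% (0.232 to 0.378%). The partner lists are sparser in far territory too, and no chance level of overlap was computed.

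In all, 48 far peaks overlapped at least 1 other list and 1 overlapped 2. The strongest shared peaks were nearest to Tox3, Got2 and Rbm19, followed by the one that overlapped 2 lists. That peak, at chr3:54633451-54633541 with a score of 4.52, lay between Postn and Supt20, 59.3 kb from the latter, and met molar pSmad1/5 and limb Smad4. Postn, the other border of that desert, encodes periostin, a matrix protein of the periodontal ligament and periosteum. Below it came peaks nearest to Ndufb6, Rpl38 and Maf. Counting summits within 500 bp in place of overlap raised the shares to 1.962%, 1.04% and 0.909%, and with a score of at least 4 in all lists no far peak overlapped either pSmad1/5 list.

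Deserts were then compared with each other. The autosomes held 2476 stretches of far territory between neighbouring coding genes, with a median of 0.128 Mb, and 1029 of them (41.6%) held no far molar Smad4 peak. A desert was called peak-rich when it held at least 10 far peaks at a density at least 2 times that of all far territory of its chromosome. By that rule 89 deserts were peak-rich, 3.59% of all. They held 1594 far peaks (20.7%) in 49.0 Mb (5.86% of far territory). Since the rule uses these densities, the counts are a description. The last deserts inside were Nucb2-Xylt1 and Kif2a-Zswim6 (both 2.01-fold) and the first outside Tmem38b-Zfp462 and Sp4-Sp8 (both just under 2-fold). The rule leans on low scores and on gene models: 3 deserts met it with a score of at least 4, and 8 when noncoding genes also bounded deserts.

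**Figure D3:**
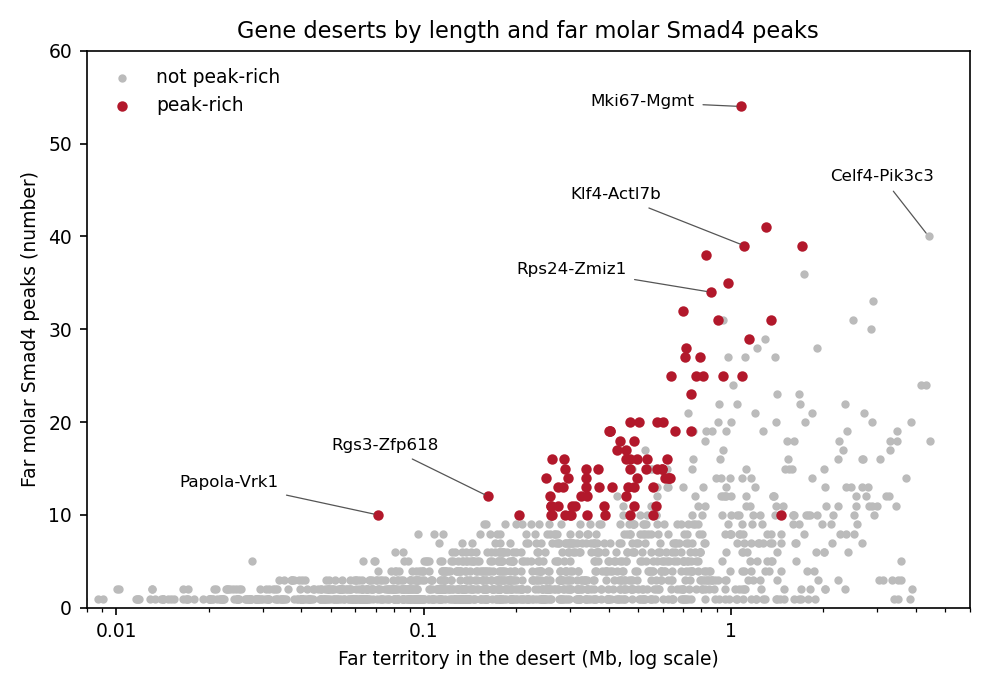
Number of far molar Smad4 peaks (vertical axis) against the length of far territory in Mb (horizontal axis, log scale) for the deserts with at least 1 far peak. Red points are the 89 peak-rich deserts and grey points the others. Mki67-Mgmt stands highest with 54 peaks in 1.08 Mb, while Celf4-Pik3c3 holds 40 peaks in 4.41 Mb.

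The desert with most far peaks lay between Mki67, which encodes the proliferation antigen Ki-67, and Mgmt, a DNA repair methyltransferase. It held 54 far molar Smad4 peaks in 1.08 Mb of far territory (chr7:135766451-136844462), 50.1 per Mb or 3.24 times the chromosome's far density. Of these, 26 were nearer to Mki67 and 28 to Mgmt, 12 had a score of at least 4, and the highest score was 5.13. Molar pSmad1/5 had 11 peaks there, limb Smad4 10 and limb pSmad1/5 10, which is 2.97, 3.88 and 2.73 times their own far densities on the chromosome. Further along the chromosome, Glrx3-Tcerg1l and Tcerg1l-Mapk1ip1 were peak-rich as well, and the 3 deserts held 94 far peaks within about 3 Mb.

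Sall3-Galr1 on chromosome 18 came second with 41 far peaks in 1.31 Mb, 2.22 times the chromosome's density. Sall3 is a spalt-family zinc-finger factor of limb, ear and nervous system. Limb Smad4 had 22 peaks there and limb pSmad1/5 16, against 8 of molar pSmad1/5. With the nearby Zfp516-Tshz1 desert, which includes the highest score of all far peaks, the count was 72.

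Klf4-Actl7b and Slc4a3-Epha4 held 39 each. Klf4 is a Krüppel-like factor of epithelial differentiation, and 29 of the 39 peaks lay on its side, at 54.2 to 430 kb from the gene. Those 29 stand beside 4 peaks of molar pSmad1/5, 4 of limb Smad4 and 1 of limb pSmad1/5 that have Klf4 as nearest gene. Slc4a3-Epha4, a desert of 1.71 Mb that ends at an ephrin receptor, had 33 peaks of molar pSmad1/5, 8 of limb Smad4 and 2 of limb pSmad1/5. Against the list's own far density on each chromosome, molar pSmad1/5 stood at 1.80-fold in Klf4-Actl7b, with 7 peaks, and at 1.22-fold in Slc4a3-Epha4, whose chromosome lists it down to a score of 2.

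Cd83-Jarid2 held 38 far peaks in 0.828 Mb (Jarid2 encodes a partner of Polycomb repressive complex 2), Plpp3-Usp24 35 in 0.983 Mb and Rps24-Zmiz1 34 in 0.861 Mb. Rps24-Zmiz1 held at least 24 peaks of every list, with 33 molar pSmad1/5, 29 limb Smad4 and 24 limb pSmad1/5 peaks. That is 3.83 times the chromosome's far density for molar Smad4, 3.22 for molar pSmad1/5, 13.8 for limb Smad4 and 9.85 for limb pSmad1/5. Zmiz1, a transcriptional coregulator related to PIAS proteins, was nearest to 24 of the molar Smad4 peaks, and 9 of those in the desert lay in the lncRNA Zmiz1os1. In Plpp3-Usp24 molar pSmad1/5 had 2 peaks, 0.580 times its chromosome's density.

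The other 3 of the 10 deserts with most far peaks were not peak-rich. Celf4-Pik3c3 held 40 far peaks in 4.41 Mb (0.642-fold) and Epha7-Map3k7 33 in 2.90 Mb (0.828-fold), below the density of their chromosomes, and Ttll7-Adgrl2 held 36 in 1.73 Mb (1.91-fold), just under the limit. Deserts of 0.1 Mb or less held 14.1 far peaks per Mb and those over 2 Mb 4.26 per Mb. No desert over 2 Mb was peak-rich, and the median length of a peak-rich desert was 0.471 Mb.

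By density over that of its chromosome the first desert was a short one. Papola-Vrk1 on chromosome 12, between the genes of a poly(A) polymerase and a vaccinia-related kinase, held 10 far peaks in 0.0712 Mb, 11.4 times the chromosome's density. Of these, 7 sat within 17.8 kb, the largest close group of all far peaks. The other 3 lists had 4 peaks each in that desert. Next to it, Vrk1-Gm46320, Gm46320-Gm52008 and Gm52008-Bcl11b were peak-rich too, and this run of 4 deserts held 73 far peaks.

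The next values over the chromosome's far density were 5.37-fold in Rgs3-Zfp618 (12 peaks), 4.93-fold in Ackr3-Cops8 (16) and 4.77-fold in Prok2-Rybp (19). Below them stood 4.47-fold in Auts2-Castor2 (10), 4.44-fold in Ktn1-Peli2 (13) and 4.43-fold in Zc3h12a-Grik3 (16). Ackr3 is a scavenging receptor for the chemokine CXCL12, and Rybp a subunit of Polycomb repressive complex 1. Auts2-Castor2 was the one peak-rich desert on a chromosome with the higher score limit, and its own density was 6.87 peaks per Mb. Then came Dysf-Cyp26b1 (4.27-fold, 11), Lyplal1-Tgfb2 (4.15-fold, 19) and Hmga2-Msrb3 (4.05-fold, 10). Cyp26b1 degrades retinoic acid, and Tgfb2 encodes a TGF-beta ligand. Of the 10 deserts highest by this measure, Ktn1-Peli2 alone had no peak of either limb list. Among all 89 peak-rich deserts, 10 had no limb Smad4 peak and 10 no limb pSmad1/5 peak.

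**Figure D4:**
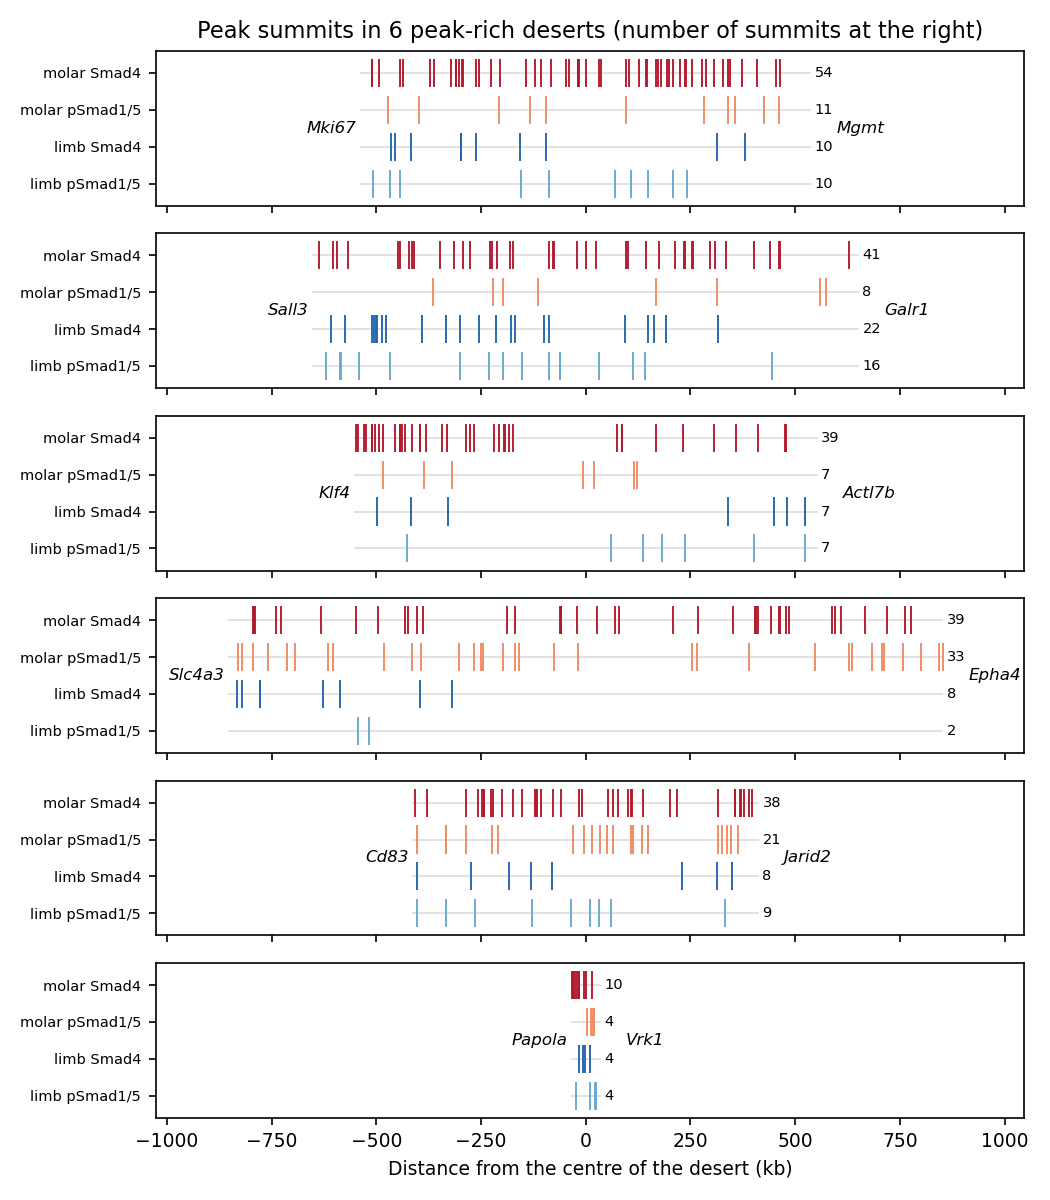
Summits of the 4 peak lists (rows, vertical ticks) by distance from the centre of the desert in kb (horizontal axis) in the 5 peak-rich deserts with most far molar Smad4 peaks and in Papola-Vrk1. Grey lines span the far territory, the flanking genes are named at its ends and the number of summits stands at the right. In Klf4-Actl7b the molar Smad4 summits crowd towards Klf4. In Slc4a3-Epha4 both molar lists, as deposited, run along the whole desert. There every molar pSmad1/5 summit nearest to Epha4 scores under 3, a range that molar Smad4 does not list.

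The deserts picked by molar Smad4 also held more peaks of the other libraries, which the rule had not used. Over the 89 peak-rich deserts together, the density over that of the chromosome was 1.95 for molar pSmad1/5, 3.21 for limb Smad4 and 3.16 for limb pSmad1/5. It exceeded 1 in 78, 72 and 73 of the 89 deserts in that order. Over all 2476 deserts it exceeded 1 in 36.4%, 30.4% and 30.6%, where 1092, 1403 and 1418 deserts held no peak of the list. In the 147 deserts that had at least 10 far peaks without being peak-rich, the densities over those of the chromosome were 0.854, 0.529 and 0.615. They were above 1 in 46, 33 and 44 of the 147. By the rule these 147 lie under 2-fold for molar Smad4, and they are longer, with 234 Mb in all against 49.0 Mb in the 89. Across the 357 deserts over 0.5 Mb on the 13 chromosomes with the lower score limit, Spearman's rho between the molar Smad4 density and the others was 0.50, 0.57 and 0.59, and with desert length it was -0.34. The first of these mixes both score limits of molar pSmad1/5. The points share the genome and its mappability, and desert length moves with all of them, so the part of each in the match was not tested.

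The longest deserts without a far molar Smad4 peak lay on the chromosomes with the higher score limit. Cdh8-Cdh11 on chromosome 8, between a pair of cadherin genes, was empty over 3.11 Mb, where molar pSmad1/5 had 6 peaks, limb Smad4 3 and limb pSmad1/5 1. It was followed by Pom121l12-Vstm2a (1.56 Mb), Grm3-Gm5861 (1.36 Mb) and Adgrl3-Tecrl (1.35 Mb). On these chromosomes the absence of peaks with a score under 4 cannot be told apart from absence of signal.

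Most far peaks stood alone. Chaining summits less than 10 kb apart left 5457 single peaks (70.9%) and 773 pairs (20.1% of far peaks), and 12 groups had at least 5 members. After Papola came a group of 6 over 19.3 kb beside Slc28a3, a nucleoside transporter. The 10 groups of 5 included those beside Foxo1 (over 5.95 kb), Fut8, Cd83, Mki67 and Zc3h12a. No peak of the other 3 lists lay inside the groups at Slc28a3, Foxo1 and Cd83. Whether such groups lie in repeats was not tested.

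The flanking genes were then described by list. A far peak was given to its nearest coding gene, which need not be the gene it acts on. In that sense 2024 of 20560 autosomal coding genes, 9.84%, had at least 1 far peak, and 49.7% of the 4070 genes that border a desert. Gene lists differ in how often they border deserts at all, so each count is given with its bordering genes. The lists were chosen with results of these data known, and no list was tested.

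Components of the BMP and TGF-beta pathways had far peaks beside ligands above all. Of 42 measured components, 21 border a desert and 13 were nearest to a far peak, with 68 peaks in all. Gdf6, a BMP-type ligand of joints and skull, had 17, Tgfb2 12, Bmp4 10 and Inhba, an activin subunit that dental mesenchyme needs, 6. Smad2, a receptor-activated Smad of the TGF-beta branch, had 8. With a score of at least 3, the Gdf6 count stands beside 3 molar pSmad1/5, 2 limb Smad4 and 0 limb pSmad1/5 peaks, and that of Tgfb2 beside 4, 2 and 3.

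Bmp4, a BMP ligand that is also on the list of dental mesenchyme regulators and signals, showed its 10 far peaks on both sides of the gene (chr14:46383525-46390669). At lower coordinates lay 6, at 68.4, 184, 300.2, 320, 359 and 361 kb, with scores from 3.002 to 3.60. At higher coordinates lay 4, at 59.0, 112, 134 and 145 kb, and these included the highest scores, 4.10 and 4.27. Molar pSmad1/5 also had 10 far peaks nearest to Bmp4, of which 1 scored at least 3, limb Smad4 had 1 and limb pSmad1/5 0. On chromosome 14 as a whole, molar Smad4 had 10.3 far peaks per Mb, limb Smad4 2.44 and limb pSmad1/5 2.83, so more molar than limb sites was the rule there.

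Among targets of BMP-Smad signalling, 10 of 30 genes were nearest to a far peak and 17 border a desert. Id2 led with 17 far peaks, all at higher coordinates than the gene, at 72.1 to 523 kb. Id4 had 13 and Hes1, a transcriptional repressor that acts downstream of Notch, 5. Msx2, a homeobox gene of dental mesenchyme and epithelium, had 10, all at higher coordinates, at 65.6 to 284 kb, and 1 of them scored at least 4 (4.26). With a score of at least 3 the other lists had 3, 8 and 9 far peaks for Id2 and 0, 6 and 2 for Msx2, in the order molar pSmad1/5, limb Smad4 and limb pSmad1/5.

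Dental mesenchyme regulators and signals were nearest to a far peak in 19 of 40 cases (28 border a desert), with 66 peaks. Bmp4 and Msx2 led, followed by Gli2 (8) and Inhba (6). Gli2, a transcription factor of Hedgehog signalling, had 9 limb Smad4 peaks, no limb pSmad1/5 peak and 10 molar pSmad1/5 peaks, all with scores under 3, and its desert up to Inhbb was peak-rich. Dental epithelium regulators and signals were nearest in 12 of 30 cases (15 border a desert), with 67 peaks. Bcl11b, a zinc-finger factor of ameloblast differentiation, had 19 and Sox2, a marker of dental progenitors, 14. Lef1, a nuclear effector of Wnt signalling, had 7 and Fgf9, an epithelial growth factor, 6. Molar pSmad1/5 had 21 far peaks for Sox2 and 23 for Bcl11b as deposited, and 6 and 2 with a score of at least 3.

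Limb patterning genes were nearest in 17 of 44 cases (26 border a desert), with 52 peaks and none above 6 per gene. En1, a homeobox gene of limb ectoderm and hindbrain, Irx5 and Sp8 had 6 each and Gli3 5. Irx5 lies on chromosome 8, where all listed peaks score at least 4, and had 9 limb Smad4 and 6 limb pSmad1/5 far peaks. As on the other lists, the count for a gene on such a chromosome cannot be set beside one elsewhere.

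The list of developmental transcription factors, picked because such genes often lie beside long gene-free intervals, gave the largest number of peaks of the 11 lists. Of 83 genes, 77 border a desert and 63 were nearest to a far peak, with 416 peaks, and 16 genes had at least 10. Klf4 had 29, Sall3 22, Bcl11b 19 and Irx1, an Iroquois homeobox gene, 17. Factors on this list border 10 of the 89 peak-rich deserts (11.2%), against 4.48% of all deserts and 12.7% of the 236 deserts with at least 10 far peaks.

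Synaptic and guidance adhesion genes were nearest in 43 of 61 cases (53 border a desert) and cadherins in 22 of 33 (24 border a desert), with 249 and 141 peaks. The latrophilin gene Adgrl2 had 30 far peaks, the most of any coding gene, then Epha4 22, Epha7 18 and Lingo2 15. Cdh20 led the cadherins with 16, ahead of Pcdh9 with 15, Pcdh18 with 13 and Pcdh17 with 11. Under the same limit of 3, molar pSmad1/5 had 5 far peaks for Adgrl2, 0 for Epha4, 6 for Epha7 and 5 for Lingo2. For the cadherins it had 7, 0, 0 and 4 in the same order of genes. Either limb list had at most 4 far peaks at each of these 8 genes. Lower counts of the other lists were the rule over all genes at that limit, as given above, and are not a trait of these genes.

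Genes in tight clusters had almost none. Of 1099 olfactory receptor genes 25 border a desert and 4 were nearest to a far peak, and of 349 vomeronasal receptor genes 72 border a desert and 2 were nearest. No gene of either family had more than 2, the number at Olfr267. Ribosomal protein genes were nearest in 8 of 73 cases (10 border a desert), led by Rps29 with 12, Rps24 with 10, Rps15a with 8 and Rpl38 with 3. Rps24 borders the desert up to Zmiz1 described above.

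Numbers depend on the length of the bordering deserts, so density was taken over the far territory nearest to each list, on the 13 chromosomes with the lower score limit. Over all genes it was 11.8 far molar Smad4 peaks per Mb. It was 26.4 beside BMP and TGF-beta components (exact Poisson 95% interval 20.1 to 34.1, 11 genes, 59 peaks) and 25.7 beside targets of BMP-Smad signalling (19.04 to 34.0, 9 genes, 49 peaks). Dental epithelium had 19.3 (14.9 to 24.6), limb patterning genes 17.2 (11.8 to 24.3), dental mesenchyme 16.9 (12.9 to 21.8) and developmental transcription factors 16.3 (14.7 to 18.01). Ribosomal protein genes, a housekeeping group, had 14.7 (10.2 to 20.4), below each of these lists. That interval overlaps theirs and covers the level of all genes. Over all 19 autosomes their 14.5 per Mb (10.4 to 19.7) was the highest value of the 11 lists, beside 14.3 (11.1 to 18.2) for dental epithelium. That rank mixes both score limits. Of their far territory, 2.38 of 2.76 Mb lay on the 13 chromosomes, against 1.90 of 6.19 Mb for BMP targets and 609 of 836 Mb for all genes. Below the level of all genes stood synaptic and guidance adhesion genes with 6.49 (5.69 to 7.37), cadherins with 4.602 (3.84 to 5.47) and vomeronasal receptors with 0.863 (0.104 to 3.12). Olfactory receptors had 7.04, with an interval from 1.92 to 18.02 that covers the level of all genes. The adhesion lists thus had many far peaks spread over long deserts, at a lower density than developmental, pathway and ribosomal protein genes.

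Limb Smad4 stood above and below its own level of all genes for the same lists. It had 3.38 far peaks per Mb over all genes, 8.50 beside BMP and TGF-beta components, 10.5 beside targets of BMP-Smad signalling and 0.642 beside cadherins. The lists overlap (Msx2, Bmp4, Gli3 and others stand on more than one), and neighbouring peaks share a desert, so the intervals are too narrow for a statement about lists. Gdf6, Tgfb2, Bmp4 and Smad2 held most of the 59 peaks of the components, and Id2, Id4, Msx2 and Hes1 most of the 49 of the BMP targets. Over all 19 autosomes, which mix both score limits, the BMP target list had 8.73 molar Smad4 peaks per Mb against 9.21 over all genes, and limb patterning genes had 8.61. Components had 12.3 (9.57 to 15.6) and dental mesenchyme 11.2 (8.62 to 14.2), an interval that covers the level of all genes. The place of these lists thus depends on the chromosomes used.

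**Figure D5:**
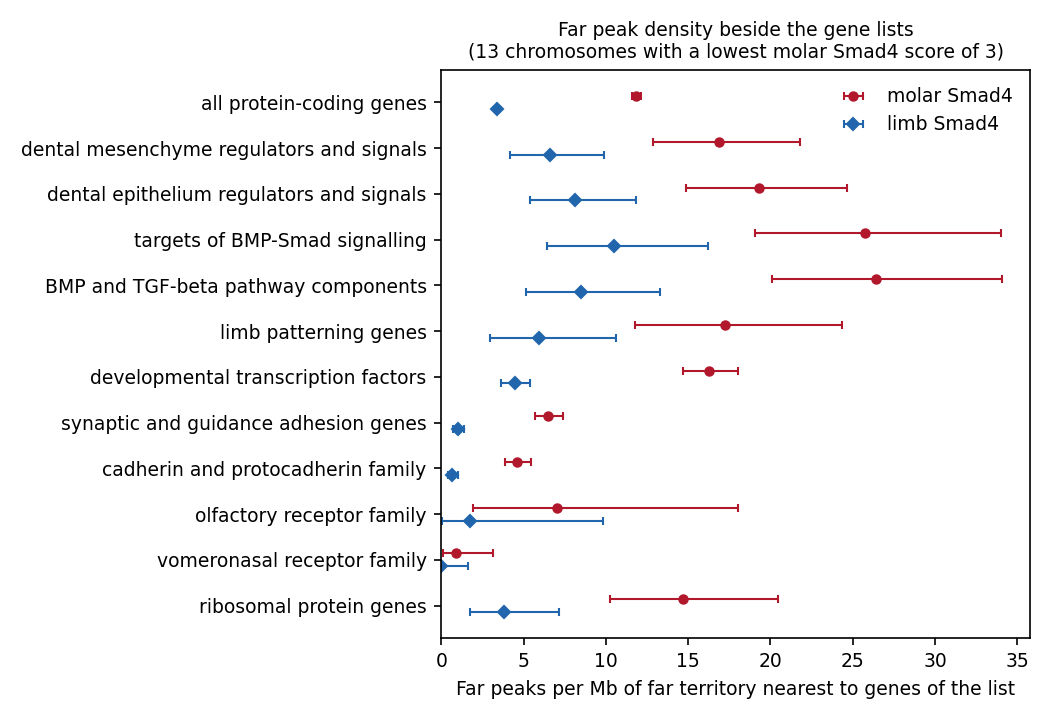
Far peaks per Mb of far territory nearest to the genes of each list (horizontal axis, starting at 0) for molar Smad4 (red circles) and limb Smad4 (blue diamonds) on the 13 chromosomes whose lowest molar Smad4 score is 3. Bars are exact Poisson 95% intervals for counting error only. BMP and TGF-beta components stand at 26.4 for molar Smad4, cadherins at 4.602 and all coding genes at 11.8.

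Far from coding genes does not mean far from all genes. Of the far peaks, 1329 (17.3%, exact 95% interval 16.4 to 18.1%) had their summit inside an lncRNA gene, and lncRNA genes cover 11.8% of far territory. That gives 13.53 peaks per Mb inside lncRNA genes. The lncRNA 2610307P16Rik near Prl5a1 held 10, Zmiz1os1 and 6030407O03Rik 9 each, and Gm32647 8. Gm12506, which has one end beside Klf4 and runs into its desert, held 7, with 0 molar pSmad1/5, 1 limb Smad4 and 0 limb pSmad1/5 peaks. Pseudogenes held 58 far peaks, 5.70 per Mb.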

How the data were processed

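ChIP-seq libraries of molar tooth germ and limb (1% formaldehyde for 15 min) were processed by the authors. The peak lists come from BCP (its setting for transcription factors, per the labels) on mm10, per the submitters' processing notes, which also name Bowtie2, SAMtools, bedtools, deepTools and bcl2fastq. Use of the inputs and treatment of duplicates and problem regions are not given in the sources used here. The deposited enrichment score and the deposited p-value are the authors' values per peak. The score served to describe, rank or filter peaks within a list and the p-value was not used. Depth is unknown.

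Members and gene lists were chosen with earlier results of these data known. RefSeq genes (GRCm38.p6) carry no strand in the table used, so distances run from either end. Left out were 105 coding entries, and 3 limb Smad4 peaks, with coordinates inside the unsequenced opening 3 Mb of a chromosome, where they cannot lie. A desert runs between neighbouring coding genes, merged where they overlap, less 50 kb at each side. Assembly gaps within deserts were not subtracted. A shared base made an overlap. Intervals are exact at 95%, Clopper-Pearson for shares and Poisson for densities, and cover counting error over peaks only. Nothing was tested, since each group has a single library. Genes were named by a fixed rule. It took the flanks of the 10 deserts with most peaks and of the 10 of highest density over their chromosome's. It also took the nearest genes of the strongest, farthest, closely grouped and shared peaks, up to 4 members per list and up to 8 noncoding genes. One gene that this rule names is not reported here. Names outside it (the genes at the promoter sequences, the last deserts inside and outside the threshold, neighbouring and empty deserts, Postn, the outermost genes) were picked with their values in view. The planned search for motifs around all summits needs a genome, which was not used here, and promoter sequences took its place. Counting was tested on simulated data. Python 3.11.15, numpy 2.4.6, pandas 2.3.3 and scipy 1.17.1 were used.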

Additional observations from a re-analysis of the deposited data

Results flagged for a closer look

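Chromosome X lies outside the rule, and no comparison above uses it. It held 1140 molar Smad4 peaks that meet the same distance from coding genes, of 3713 peaks there (30.7%, exact 95% interval 29.2 to 32.2%), or 15.1 per Mb of far territory. The lowest listed score on this chromosome was 2.001, and 11 of the 1140 scored at least 4. Far territory made up 44.9% of the span of X, against 34.8% of that of the autosomes, so the far shares of X and autosomes cannot be compared directly. The other lists had 435 (molar pSmad1/5), 367 (limb Smad4) and 365 (limb pSmad1/5) far peaks on X. These are 30.8%, 29.6% and 27.1% of their peaks there, and on X these lists start at a score of 2 as well. Chromosome X was singled out only because the main counts leave it out by rule.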

How the results depend on the processing

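Of the recomputed main values, 62 stayed within the counting interval of the reported value or, for counts, within 1.5 times, 39 moved further and no difference changed sign. With 25 kb in place of 50 kb the far share was 31.7%, the density ratio 0.648, the median distance 117 kb and the share of genes nearest to a far peak 13.2%. With 100 kb these were 17.5%, 0.565, 229 kb and 6.401%, and 0.0743% overlapped limb Smad4. With every RefSeq gene as a border there were 2444 far peaks (7.93%), a ratio of 0.490, a median of 86.9 kb, 8 peak-rich deserts and 3.09% of genes. Without predicted coding genes the values were 25.7%, 0.601 and 10.7% of genes. With a score of at least 4 there were 1424 far peaks (19.9%), a ratio of 0.464, a score difference (far minus other) of -0.0315, a median of 148 kb, 3 peak-rich deserts, 4.54% of genes and overlaps of 0% with either pSmad1/5 list. On the 13 chromosomes with a lowest score of 3 alone, the values were 25.8%, 0.592, -0.0477 and 13.3% of genes. Summits within 500 bp gave overlaps of 1.962%, 1.04% and 0.909%, and an overlap of 50% of the shorter peak gave 0.0780% with limb pSmad1/5. Peak-rich deserts numbered 31 at 3-fold and 211 with at least 5 peaks. Keeping the genes in the opening gap, an alternative chosen after seeing the gene table, gave a ratio of 0.605. A score of at least 3 in all lists, also added later, gave 0.0780% for molar pSmad1/5. The cause of each shift was not tested. Of the counts per gene list, 74 stayed within 1.5 times and 25 did not. No paired analysis was possible because each group has 1 library and no result comes from a test. Nothing here speaks to variation between animals, and depth limits what an absent peak means.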

Other observations

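Segments of antigen receptor loci do not count as genes under the rule, since they are not typed as protein-coding in the table used. The coding gene Adam6a lies within Igh, so not all of that span is far territory. For scale, far territory held 12.4 molar Smad4 peaks per Mb on chromosome 12, which carries Igh, and 10.3 on chromosome 14, which carries Tcra. The immunoglobulin heavy chain locus Igh held 11 far molar Smad4 peaks over 2751 kb, with 12 molar pSmad1/5, 7 limb Smad4 and 5 limb pSmad1/5 peaks. The T cell receptor locus Tcra held 10 over 1796 kb, with 7, 2 and 1, and 7 of the 10 lie in the nested Tcrd.

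The imprinted stretch of chromosome 12 between Rtl1 and Dio3, rich in lncRNAs and microRNAs, held far peaks at 2 lncRNA starts and beside 1 microRNA. The Gm34667 peak had a score of 4.14, its summit lay 255 kb from Dio3, and the Gm34554 peak had a score of 3.89 and lay 317 kb from Rtl1. A peak with a score of 3.46 lay 635 bp from the hairpin of Mir154. Across all far peaks, 3 lay within 1 kb of a microRNA hairpin, the closest 10 bp from Mir6344 near Irs1. These names were chosen after their values were seen.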
